A study of Homo sapiens with 8 samples.

Results

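The comparison described here set CBAP-deficient against CBAP-expressing Jurkat cells with the way CBAP was removed, by shRNA or by CRISPR/Cas9, held as a covariate. Jurkat is an established human cell line from a T-cell acute lymphoblastic leukemia (T-ALL). All 8 RNA-seq libraries entered it, 2 for each of 4 conditions. The shRNA set held sh-Ctrl cells, which carried a control hairpin, and sh-CBAP cells, in which CBAP was knocked down, with stable lentiviral delivery in both. The CRISPR set held CBAP-KO cells, which expressed GFP, and CBAP-reconstituted cells, which were the same knockout given back CBAP as a GFP fusion, so both conditions of that set carried the edited gene. A CRISPR control without the knockout was not analysed here. The study grew knockout clones from sorted single cells and selected its shRNA clones with puromycin. Differences between clones and the loss of CBAP therefore cannot be told apart within a set. The labels do not say whether the 2 libraries of a condition came from separate cultures or clones, so the p-values measure the spread between these libraries, which may be technical. Of the 13453 entries of the deposited table, 10542 had an FPKM above 0 in all 8 libraries and a mean FPKM of at least 1, and these were the genes tested. FPKM is the number of fragments per kilobase of exon model, scaled to the mapped fragments of the library. A further 885 entries reached the mean but were listed at 0 in some library, and 2026 lay under it. SORBS2 (mean FPKM 0.998) and C21orf7 (0.999) fell just outside the limit, and RNF182 and KIF4B (1.0016 and 1.0028) just inside it.

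CBAP was first found as a binding partner of a cytokine receptor chain. In T cells it takes part in signaling from the T-cell receptor and from chemokine receptors to integrins. The study asked how it bears on signaling from Akt to mTORC1, the kinase complex that promotes translation, glycolysis and lipid synthesis when nutrients and growth factors are present. Genes of these pathways were therefore followed through both sets, together with genes of T-cell signaling, adhesion and the cell cycle.

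CBAP is encoded by TMEM102. Its FPKM was 4.07 and 4.74 in the sh-Ctrl libraries and 2.69 and 2.89 in the sh-CBAP libraries, so the groups did not overlap. It was listed at 0 in all 4 CRISPR-set libraries, the CBAP-reconstituted ones included, so it was not among the tested genes and could not check the labels of that set. No counts were given, so the depth of the libraries is unknown. FPKM summed to between 362082 and 434742 per library. Replicate libraries were closest in CBAP-reconstituted cells, where the log2 difference had an SD of 0.0942, against 0.192 in CBAP-KO, 0.239 in sh-Ctrl and 0.280 in sh-CBAP cells, and among the tested genes no pair shared an equal value. T-cell markers were present throughout, with a summed FPKM between 1790 and 2930 over 15 of 16 markers. Of 8 B-cell markers 3 were in the table, and their summed FPKM was 4.60 and 4.94 in the CBAP-reconstituted libraries against 22.5 to 32.6 in the other 6. That difference came from CD79A and BLK, and its part in the CRISPR-set results was not tested. The myeloid, erythroid and stromal lists summed to at most 9.10 in any library. In bulk RNA, fewer cells of a kind and less RNA per cell cannot be told apart.

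With the set as a covariate, 1910 of the 10542 tested genes (18.1%) were called between CBAP-deficient and CBAP-expressing cells (adjusted p under 0.05). Of these, 1280 (12.1% of tested genes) were lower and 630 (5.98%) higher in the deficient cells. Without adjustment, 3993 genes had a p under 0.05. Within the shRNA set, 1255 genes (11.9%) were lower and 480 (4.55%) higher. Within the CRISPR set, 2986 (28.3%) were lower and 2855 (27.1%) higher. The covariate fit asks for a common shift on average, whereas a gene that moved the same way in both sets had to pass the contrast of each set. This held for 810 genes, 565 of them lower (5.36% of tested genes) and 245 higher (2.32%). Both contrasts came from 1 fit that shared its estimate of the spread over all 4 conditions, so the spread of each set entered the p-values of the other. With each set fitted alone, 312 genes were called in the shRNA set, and 169 moved the same way in both sets. All 810 were also called in the covariate fit, and in each of them the CBAP-deficient libraries lay beyond the CBAP-expressing libraries within each set. With 2 libraries per condition, choosing genes by their p-values in each set makes such a separation nearly certain, so it adds no support. The remaining genes of the covariate fit were called in 1 set, 696 lower and 375 higher, or in neither, 19 and 10.

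**Figure D1:**
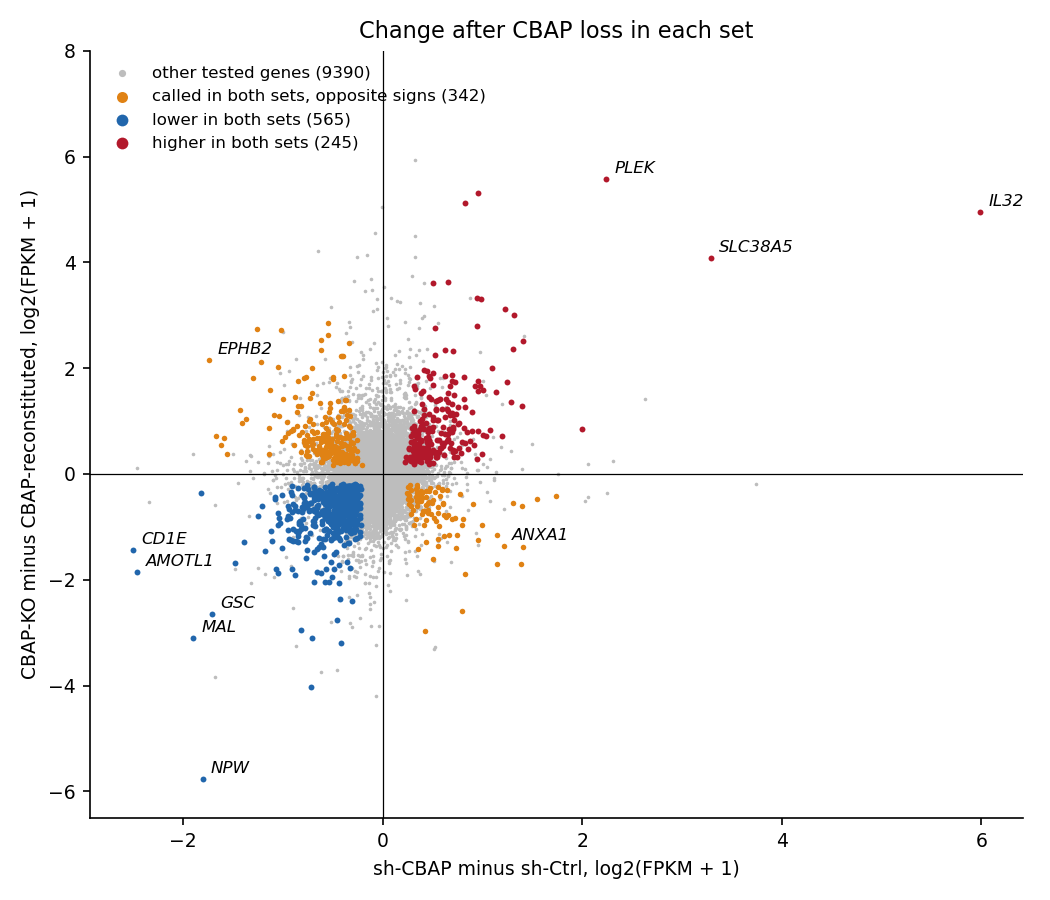
Change of each of the 10542 tested genes in the shRNA set (horizontal axis) and the CRISPR set (vertical axis), both as a difference of mean log2(FPKM + 1), CBAP-deficient minus CBAP-expressing. Blue and red points are the 565 genes lower and 245 genes higher in both sets, orange points the 342 genes called in both sets with opposite signs. IL32 and SLC38A5 stand far to the upper right, and the CRISPR-set changes spread further than the shRNA-set changes.

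The overlap differed with the side from which it was counted. Of the genes lower in the shRNA set, 45.0% were also lower in the CRISPR set and 19.8% were higher there. Of the genes higher in the shRNA set, 51.0% were also higher in the CRISPR set and 19.6% were lower. Of the more numerous CRISPR-set genes, 18.9% of the lower and 8.58% of the higher were called the same way in the shRNA set. Over all tested genes the changes had the same sign in 57.7%, and Pearson's r between the sets was 0.205 and Spearman's rho 0.200, as a description across genes, which are not independent replicates. The sets share no library. The median change of the genes lower in both sets was -0.437 after knockdown and -0.605 after knockout, and that of the genes higher in both was 0.471 and 0.689, on the log2(FPKM + 1) scale used for all changes here. This scale understates the change of genes with low FPKM. In 13 lower and 13 higher genes the change was at least 1 in each set. By the interaction contrast, 4042 tested genes (38.3%) changed by unequal amounts in the sets, among them 167 of the 565 lower genes (29.6%) and 94 of the 245 higher genes (38.4%).

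The excess of lower over higher genes depended on how the libraries were scaled. As deposited, the median change of all tested genes was -0.0600 after knockdown and 0.00688 after knockout. After median-ratio scaling, 448 genes were lower and 428 higher in both sets, and the covariate fit called 1020 lower and 995 higher. After quantile normalization these counts were 424 and 425 in both sets, and 1022 and 936 in the covariate fit. After removal of the trend with transcript GC content and length, a setting added after the data were seen, they were 456 and 444, and 822 and 858. Without sh-CBAP replicate 1, 620 genes were lower and 563 higher in both sets, and 1346 and 1315 in the covariate fit. The higher genes changed less under these settings than the lower ones, since 196 of 245 higher genes and 277 of 565 lower genes were called the same way under all 3 scalings. The GC and length fit held 242 of the higher and 545 of the lower genes, and the others count as not kept in this paragraph. The number of genes also rested on single libraries. It was 287 and 289 when CBAP-reconstituted replicate 1 or 2 was left out, 432 and 409 for CBAP-KO replicate 1 or 2, 488 without the first and 572 without the second sh-Ctrl library, and 1183 and 1199 when an sh-CBAP library was left out. Of the 810 genes, 140 lower and 73 higher ones kept their call in both sets under the 3 scalings and in all 8 fits that left out a library.

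**Figure D2:**
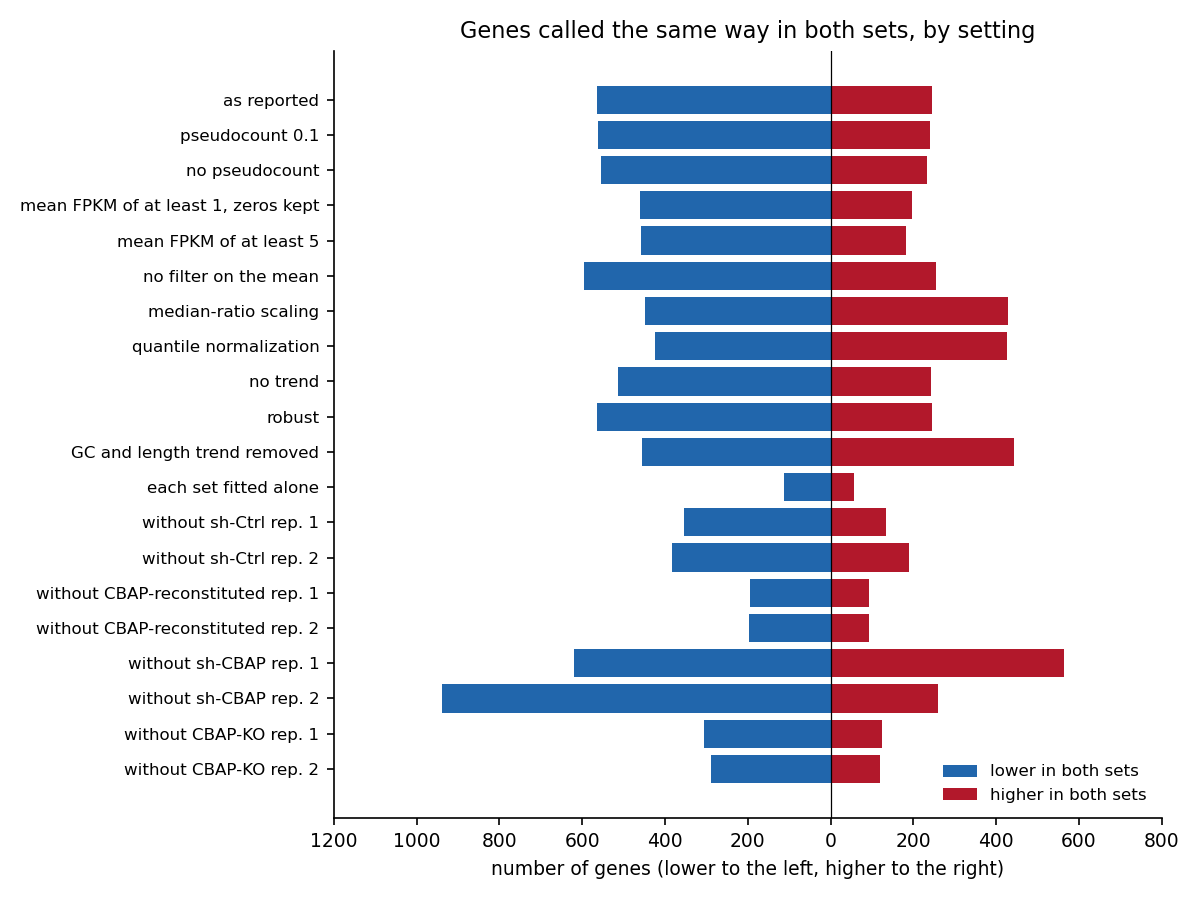
Number of genes lower (blue, to the left) and higher (red, to the right) in CBAP-deficient cells in both sets, in the fit as reported and under each alternative setting. The 3 scalings bring the counts of lower and higher genes close to each other, and the count falls most when each set is fitted alone (112 lower, 57 higher).

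Genes are ranked here by the smaller of their 2 within-set changes, and by this measure IL32 rose most. IL32 (GRCh37 chr16:3115298-3132193) encodes a cytokine of T and NK cells. Its FPKM was 0.7996 and 0.591 in the sh-Ctrl libraries and 89.7 and 127 in the sh-CBAP libraries, and 0.509 and 0.7602 in the CBAP-reconstituted and 51.4 and 47.4 in the CBAP-KO libraries. It was under 1 in all 4 CBAP-expressing libraries and between 47.4 and 127 in the CBAP-deficient libraries, a difference of 5.47 (SE 0.223, adjusted p = 0.00014) with the set as a covariate. SLC38A5 (GRCh37 chrX:48316920-48328648), a transporter of glutamine and other neutral amino acids, went from 0.738 and 0.743 in sh-Ctrl to 14.3 and 17.9 in sh-CBAP cells and from 0.212 and 0.229 in CBAP-reconstituted to 19.03 and 20.4 in CBAP-KO cells, a difference of 3.69 (SE 0.17, adjusted p = 0.000173). Its 4 CBAP-deficient libraries lay between 14.3 and 20.4, far above the other 4. PLEK (GRCh37 chr2:68592414-68624585), which encodes the protein kinase C substrate pleckstrin, reached 7.48 and 6.19 in sh-CBAP against 0.294 and 1.12 in sh-Ctrl libraries and 66.7 and 67.7 in CBAP-KO against 0.359 and 0.522 in CBAP-reconstituted libraries. Its rise was larger in the CRISPR set (interaction adjusted p = 0.000305).

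The RefSeq promoters (GRCh38.p14, 250 bases before and 50 after the annotated start, read on the strand of the gene) of IL32 and SLC38A5 are shown because these genes had the largest rise by the smaller of their 2 within-set changes, and those of POU3F2 and EXOSC5, described below, because they fell in both sets and hold more than 1 match to the searched motifs. Capitals mark exact matches to the E-box CACGTG, the CCAAT box CCAAT, the cyclic AMP response element TGACGTCA, or the NRF1-like GCATGCGC, ETS-like CCGGAAGT and SRE-like TCACCCCAC, on either strand. The windows are chr16:3065153-3065452 on the plus strand for IL32, chrX:48470211-48470510 on the minus strand for SLC38A5, chr6:98834324-98834623 on the plus strand for POU3F2 and chr19:41397310-41397609 on the minus strand for EXOSC5.
IL32: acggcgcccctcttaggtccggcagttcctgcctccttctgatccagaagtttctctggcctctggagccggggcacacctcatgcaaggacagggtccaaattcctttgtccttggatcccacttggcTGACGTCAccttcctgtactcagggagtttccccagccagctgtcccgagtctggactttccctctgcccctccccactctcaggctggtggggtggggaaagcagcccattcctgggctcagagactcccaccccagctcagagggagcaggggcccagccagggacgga
SLC38A5: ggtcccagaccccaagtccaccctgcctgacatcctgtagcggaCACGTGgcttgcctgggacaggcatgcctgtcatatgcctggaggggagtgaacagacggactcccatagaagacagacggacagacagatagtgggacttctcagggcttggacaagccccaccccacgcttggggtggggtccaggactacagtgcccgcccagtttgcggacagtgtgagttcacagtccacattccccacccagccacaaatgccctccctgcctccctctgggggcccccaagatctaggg
POU3F2: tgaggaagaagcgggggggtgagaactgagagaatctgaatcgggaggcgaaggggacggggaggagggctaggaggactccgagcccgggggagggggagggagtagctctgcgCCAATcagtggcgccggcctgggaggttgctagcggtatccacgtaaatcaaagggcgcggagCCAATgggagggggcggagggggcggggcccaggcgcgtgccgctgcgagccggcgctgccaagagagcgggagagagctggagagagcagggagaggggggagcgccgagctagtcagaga
EXOSC5: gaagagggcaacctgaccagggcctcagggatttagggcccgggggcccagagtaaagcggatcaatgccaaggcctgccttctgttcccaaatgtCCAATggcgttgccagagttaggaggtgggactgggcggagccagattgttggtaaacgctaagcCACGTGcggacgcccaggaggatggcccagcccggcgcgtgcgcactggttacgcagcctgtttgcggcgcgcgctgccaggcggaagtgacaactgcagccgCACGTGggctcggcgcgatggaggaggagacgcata
The IL32 window holds a cyclic AMP response element at position 130 from its 5′ end, the SLC38A5 window an E-box at position 45, the POU3F2 window CCAAT boxes at positions 116 and 179, and the EXOSC5 window a CCAAT box at position 97 and E-boxes at positions 162 and 265. Such a match is a description of the letters and not of binding. Of the 27305 RefSeq promoters, 7.43% hold an E-box, 35.7% a CCAAT box and 1.98% a cyclic AMP response element.

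Several of the other risers are known from immune cells. Here and in what follows the pairs of FPKM values are replicates 1 and 2, the change runs from CBAP-expressing to CBAP-deficient cells, and the shRNA set comes first where the sets are not named. CD96, a receptor of the immunoglobulin family on T and NK cells, went from 6.46 and 6.78 to 16.5 and 19.2 in the shRNA set and from 4.32 and 4.52 to 26.1 and 27.3 in the CRISPR set. ALOX5AP, which delivers arachidonate to 5-lipoxygenase, went from 22.6 and 18.1 to 46.9 and 50.6 and from 5.196 and 4.43 to 48.9 and 49.6, so that its CBAP-deficient libraries were alike in both sets while its CBAP-expressing libraries were not. TRPM2, a calcium-permeable cation channel, was at 2.68 and 2.4 in sh-Ctrl and 7.83 and 7.79 in sh-CBAP libraries, and at 0.0423 and 0.0799 in CBAP-reconstituted and 7.74 and 7.25 in CBAP-KO libraries. TDRD9, a germline RNA helicase, showed the same arrangement, with 1.32 and 0.826 and 4.46 and 4.43 in the shRNA set and 0.0231 and 0.0228 and 4.55 and 5.09 in the CRISPR set. For both genes the larger CRISPR-set change (interaction adjusted p = 0.000157 and 0.00354) came from a lower level in CBAP-reconstituted than in sh-Ctrl cells. S100A4, a calcium-binding protein linked to cell motility, was at 11.3 and 10.8 in sh-Ctrl, 24.5 and 24.9 in sh-CBAP, 0.911 and 1.13 in CBAP-reconstituted and 7.49 and 6.65 in CBAP-KO libraries, so both CBAP-KO libraries lay below the sh-Ctrl libraries although S100A4 rose within each set.

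For the other 4 of the 12 genes with the largest common rise the interaction contrast did not pass (adjusted p at least 0.0701). LRIG1, which restrains receptor tyrosine kinases, rose by 1.28 after knockdown and 1.37 after knockout (covariate adjusted p = 0.00103), from 5.05 and 4.49 to 12.2 and 13.9 and from 1.47 and 1.41 to 5.35 and 5.24. VRK2, a serine/threonine kinase, went from 1.59 and 2.11 to 5.49 and 7.67 and from 1.24 and 0.938 to 4.13 and 4.07. TRIB2, a pseudokinase and Notch target in T-ALL, went from 15.9 and 22.4 to 50.96 and 35.9 and from 19.3 and 19.8 to 63.8 and 54.5. ANXA2, a membrane-binding annexin, went from 6.78 and 9.04 to 18.5 and 21.4 and from 7.85 and 8.35 to 29.8 and 28.6, a value that is uncertain in part because a near-identical processed copy, ANXA2P2, can share its reads. These 12 genes kept their call in both sets under every alternative setting, except TRIB2, which lost it without sh-Ctrl replicate 1. ALOX5AP alone among them lost the covariate call on leaving out a library (adjusted p = 0.0507 without CBAP-reconstituted replicate 1).

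**Figure D3:**
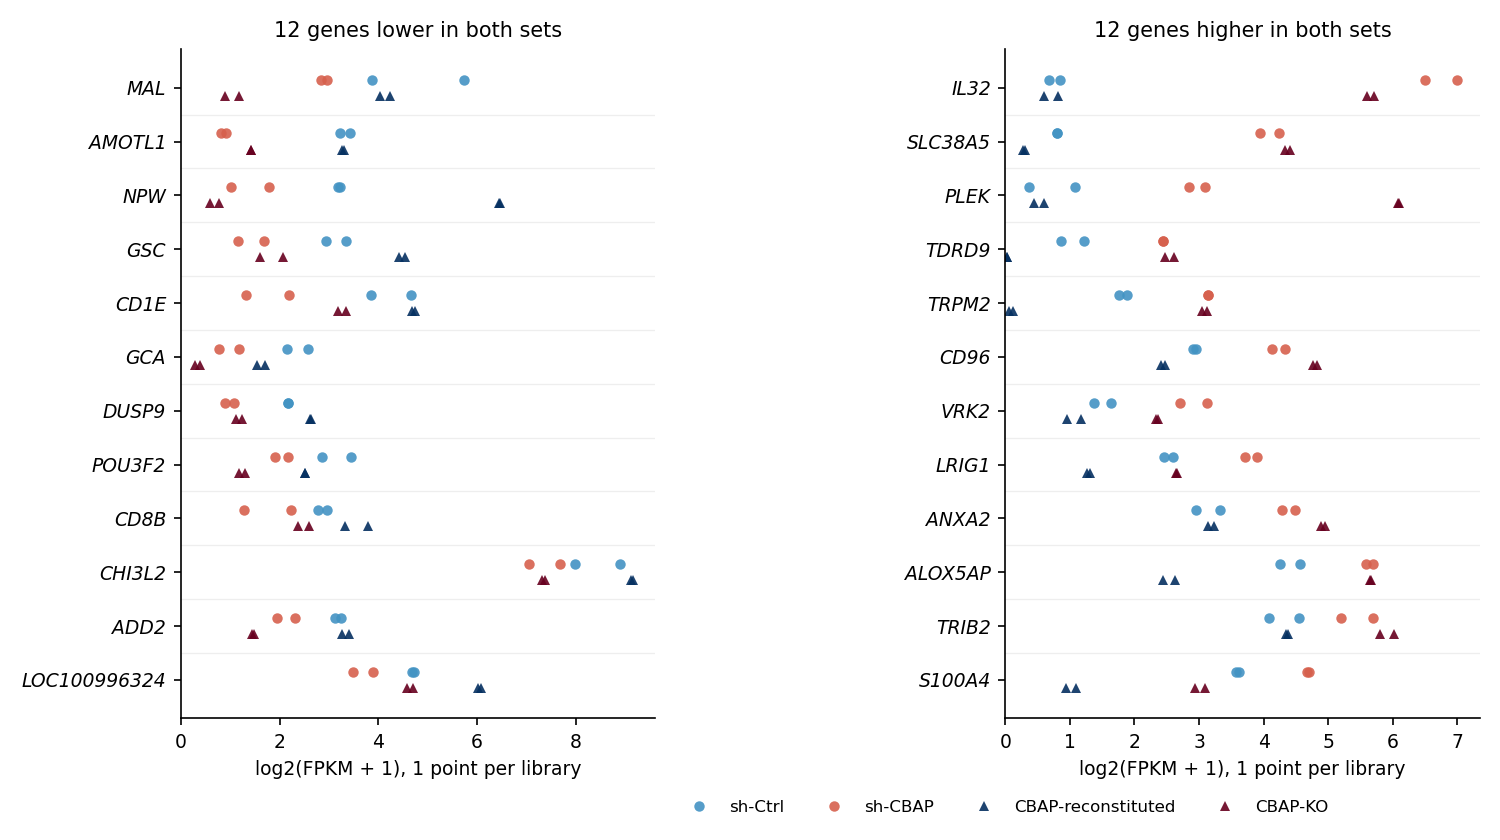
Level of the 12 genes with the largest common fall (left) and the 12 with the largest common rise (right), as log2(FPKM + 1) on the horizontal axis with 1 point per library, circles for the shRNA set and triangles for the CRISPR set. For IL32 and SLC38A5 the CBAP-deficient libraries (red) lie far to the right of the CBAP-expressing ones (blue), whereas NPW and GSC start from a higher level in CBAP-reconstituted than in sh-Ctrl cells.

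The 12 genes with the largest common fall had diverse roles, and 3 of the 12 encode membrane proteins known from T cells. CD1E, a CD1-family protein of cortical thymocytes that helps present lipid antigens, went from 24.4 and 13.5 in sh-Ctrl to 1.49 and 3.59 in sh-CBAP libraries and from 25.6 and 24.5 in CBAP-reconstituted to 9.195 and 8.097 in CBAP-KO libraries. MAL, a raft protein that carries the kinase Lck to the plasma membrane of T cells, was at 51.97 and 13.7 in sh-Ctrl and 6.19 and 6.76 in sh-CBAP libraries, and at 17.8 and 15.4 in CBAP-reconstituted and 0.861 and 1.25 in CBAP-KO libraries. The 2 sh-Ctrl libraries differed widely for MAL, and its covariate call was lost without either CBAP-reconstituted library (adjusted p = 0.053) and its call in both sets with the GC and length trend removed or without any 1 of the sh-CBAP or CRISPR-set libraries. CD8B, a chain of the CD8 co-receptor, fell from 5.897 and 6.81 to 3.67 and 1.44 and from 8.96 and 12.9 to 5.05 and 4.17, but lost the call in both sets under each of the 3 scalings, and lost the covariate call without any 1 of the 4 CRISPR-set libraries (adjusted p at most 0.0724).

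AMOTL1 (GRCh37 chr11:94439597-94609913), a junction protein of the angiomotin family that binds the Hippo effector YAP, had similar levels in both kinds of CBAP-expressing cells. Its FPKM was 9.78 and 8.34 in sh-Ctrl, 8.84 and 8.57 in CBAP-reconstituted, 0.881 and 0.767 in sh-CBAP and 1.69 and 1.68 in CBAP-KO libraries, a difference of -2.16 (SE 0.138, adjusted p = 0.00103). POU3F2, a neural POU-domain transcription factor, went from 9.84 and 6.22 to 2.77 and 3.48 and from 4.68 and 4.71 to 1.27 and 1.45. GSC, the homeobox factor goosecoid, went from 9.102 and 6.64 to 1.23 and 2.23 and from 20.4 and 22.2 to 2.03 and 3.19. NPW, the precursor of neuropeptide W, fell from 8.13 and 8.296 to 1.02 and 2.44 in the shRNA set and from 87.4 and 85.99 to 0.709 and 0.518 in the CRISPR set, a fall that was larger in the CRISPR set (interaction adjusted p = 0.000173) and whose covariate call was lost without any 1 of the 4 CRISPR-set libraries (adjusted p at most 0.07).

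DUSP9, a phosphatase that inactivates ERK, went from 3.52 and 3.48 to 1.11 and 0.8699 and from 5.25 and 5.15 to 1.18 and 1.35 (covariate difference -1.32, SE 0.0999, adjusted p = 0.00301). GCA, the calcium-binding protein grancalcin, went from 4.98 and 3.46 to 1.28 and 0.702 and from 1.897 and 2.28 to 0.223 and 0.305. ADD2, a membrane-skeleton adducin, went from 8.51 and 7.66 to 2.86 and 3.97 and from 9.56 and 8.66 to 1.71 and 1.805. CHI3L2, a chitinase-like secreted protein, was the most abundant of the 12, at 475 and 253 and 132 and 205 in the shRNA set and 554 and 571 and 159 and 165 in the CRISPR set, and lost the call in both sets under each of the 3 scalings. It also lost the covariate call without any 1 of the 4 CRISPR-set libraries (adjusted p at most 0.0601). The uncharacterized LOC100996324 completes the 12 genes, with 25.4 and 24.7 and 10.2 and 13.9, and 66.8 and 63.5 and 25.2 and 23.02.

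For most genes that moved the same way the classes were also separated across the sets, which is given as a description. Choosing genes by their calls in each set makes this separation more frequent, so it adds no support. All 4 CBAP-deficient libraries lay below all 4 CBAP-expressing libraries for 418 of the 565 genes lower in both sets (74.0%), compared with 1119 of all tested genes (10.6%), and above them for 185 of the 245 genes higher in both (75.5%), compared with 511 (4.85%). The median absolute difference between sh-Ctrl and CBAP-reconstituted cells was 0.298 for the lower and 0.324 for the higher genes, against 0.263 for all tested genes. Between sh-CBAP and CBAP-KO cells it was 0.281 and 0.284, against 0.347.

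For the lists that follow, counts in both sets are to be read beside 5.36% lower and 2.32% higher among all tested genes. Counts in the covariate fit are to be read beside 12.1% and 5.98%. Glycolytic enzymes were lower where they changed in both sets. Of 27 tested glycolysis genes, 8 were lower and none higher in the covariate fit, and 3 were lower in both sets, TPI1, ENO1 and GPI. The list median was -0.211 in the shRNA and -0.168 in the CRISPR set, against -0.0600 and 0.00688 for all tested genes. ENO1, the enolase that makes phosphoenolpyruvate, was at 982 and 977 in sh-Ctrl and 724 and 766 in sh-CBAP libraries, and at 1087 and 1086 in CBAP-reconstituted and 536 and 532 in CBAP-KO libraries. GPI, which turns glucose 6-phosphate into fructose 6-phosphate, went from 111 and 112 to 85.4 and 92.6 and from 145 and 134 to 77.6 and 76.4. The falls of both were larger in the CRISPR set (interaction adjusted p = 0.00202 and 0.00619), and their covariate calls were lost without any 1 of the 4 CRISPR-set libraries (adjusted p at most 0.076 and 0.0758). TPI1, triose phosphate isomerase, changed by -0.55 in the shRNA and -0.61 in the CRISPR set.

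Of 35 genes of the citrate cycle and pyruvate dehydrogenase, 7 were lower and none higher in the covariate fit. In both sets 2 were lower (5.71%, near the 5.36% of all tested genes), and 2 were called with opposite signs, IDH2 and PDHX. FH, fumarate hydratase, went from 81.4 and 68.9 to 44.2 and 57.2 and from 115 and 118 to 54.9 and 57.5. ACO1, the cytosolic aconitase that also acts as an iron-responsive RNA-binding protein, went from 21.5 and 21.1 to 16.2 and 15.9 and from 20.01 and 19.8 to 16.5 and 15.7. Without any 1 of the CRISPR-set libraries the covariate call of ACO1 was lost (adjusted p at most 0.0686), as was that of FH without either CBAP-reconstituted library (0.0528). Of 66 oxidative phosphorylation genes, 22 were lower and 1 higher in the covariate fit, and 11 were lower and 1 higher in both sets. Of the 11, 8 belong to complex I (NDUFA2, NDUFA8, NDUFA10, NDUFA11, NDUFB1, NDUFB2, NDUFS7 and NDUFV1), and the others are UQCRC1, CYC1 and ATP5G1, while COX7A2L was higher. The number of complex I genes among the 66 is not given here, so the 8 cannot be set beside their share of the list. NDUFA10 went from 59 and 58.97 to 44.7 and 41.5 and from 65.4 and 66.6 to 41.2 and 46.5, and NDUFA8 from 73.8 and 77.8 to 53.03 and 58.5 and from 78.7 and 78.9 to 48.2 and 46.7. The number of lower genes in both sets was 5 after median-ratio scaling, 3 after quantile normalization and 4 after removal of the GC and length trend, so this count rested largely on the scaling. NDUFA2, NDUFA11, NDUFB2, NDUFS7, UQCRC1 and CYC1 lost the call under each of the 3. NDUFV1 kept it under 1 of the 3, and NDUFB1 under 2 but in only 1 of the 8 fits that left out a library.

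Branched-chain amino acid degradation had the largest share of lower members among these pathways, with 9 of 26 genes lower and none higher in the covariate fit and 5 lower in both sets. PCCB, a subunit of propionyl-CoA carboxylase, went from 69.8 and 69.9 to 47.3 and 52.4 and from 70.8 and 72.6 to 38.3 and 39.7 (covariate difference -0.67, SE 0.0905, adjusted p = 0.00713). BCAT2, the mitochondrial transaminase that starts the pathway, went from 46.6 and 41.8 to 33.8 and 32.2 and from 51.96 and 52.9 to 29.1 and 30.1, and lost its covariate call without CBAP-reconstituted replicate 1 (adjusted p = 0.0509) and its call in both sets with the GC and length trend removed. ALDH6A1, the methylmalonate semialdehyde dehydrogenase, was low and went from 7.01 and 5.76 to 3.59 and 4.398 and from 4.59 and 4.97 to 3.25 and 2.86, and lost its covariate call without any 1 of the CRISPR-set libraries (at most 0.0727). ECHS1 was also lower in both sets, but lost that call under each of the 3 scalings and kept it in 1 of the 8 fits that left out a library. The number of list members lower in both sets was 4 or 5 under the 3 scalings, which need not be the same genes.

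For lipid synthesis the sets shared some lower fatty acid enzymes, whereas most sterol genes moved in opposite directions. Of 22 fatty acid synthesis genes, 4 were lower in both sets (ACLY, SLC25A1, ACACA and FASN) and 1 was higher (PTPLB), while 3 were called with opposite signs. SLC25A1 lost the call in both sets with the GC and length trend removed. ACLY kept it under 2 of the 3 scalings and in 4 of the 8 fits that left out a library. PTPLB kept it in 2 of those 8 fits. The products of the 4 lower genes act in 1 route, from the export of citrate through cytosolic acetyl-CoA and malonyl-CoA to palmitate. ACACA, acetyl-CoA carboxylase, went from 19.8 and 19.8 to 11.6 and 13.99 and from 17.97 and 17.9 to 12.1 and 12.1, and FASN, fatty acid synthase, from 51.3 and 54.9 to 28.6 and 36.6 and from 49.3 and 47.8 to 26.8 and 25.01. Of 26 cholesterol synthesis genes and SREBP targets, 22 were lower in the shRNA set but 17 were higher in the CRISPR set, and 15 were called with opposite signs. The list median was -0.610 in shRNA and 0.372 in CRISPR cells.

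Of 24 nucleotide synthesis genes, 6 were lower and none higher in the covariate fit. DTYMK, thymidylate kinase, went from 60.97 and 65.5 to 43.6 and 39.9 and from 76.6 and 77.98 to 46.4 and 42.7 and was lower in both sets under every alternative. IMPDH1, which commits purines to guanine nucleotides, and DUT, which hydrolyzes dUTP, were also lower in both sets, but lost that call under each of the 3 scalings. Their covariate calls were lost without any 1 of the CRISPR-set libraries (adjusted p at most 0.0724 for IMPDH1) and, for DUT, without any library but sh-CBAP replicate 2 (at most 0.139). Of 16 amino acid transporters, 1 was lower and 4 were higher in the covariate fit, and SLC38A5 and SLC7A6 were higher in both sets. SLC7A6, which exchanges basic for neutral amino acids, went from 15.4 and 13.5 to 18.1 and 22.6 and from 16.2 and 16.9 to 23.2 and 21.2, and lost its covariate call without any 1 of the CRISPR-set libraries (at most 0.0828). It lost the call in both sets under 9 alternatives. Of 16 targets of ATF4, the factor of the amino acid response, none was called in the covariate fit or in both sets, although 11 were higher in the CRISPR set.

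Genes of the translation machinery fell far more often in the CRISPR than in the shRNA set, so few were common to both. Of 72 cytosolic ribosomal protein genes, 53 were lower and 4 higher in the CRISPR set, whereas 1 was lower and 6 were higher in the shRNA set. RPL32 was the one lower in both sets, from 101 and 103 to 81.5 and 69.01 and from 135 and 128 to 57.1 and 55.1, and RPL22 the one higher in both, from 103 and 96.03 to 117 and 116 and from 38.3 and 38.9 to 45.6 and 45.2. In either class RPL22 was lower in the CRISPR set than in the shRNA set. RPL32 lost the call in both sets under each of the 3 scalings. Ribosomal protein genes have many processed copies that can share reads, and neither call held when single libraries were left out (adjusted p up to 0.0722 and 0.128 without a CRISPR-set library or, for RPL22, sh-Ctrl replicate 2). Of 69 mitochondrial ribosomal protein genes, 58 were lower in the CRISPR and 10 in the shRNA set, and 8 in both. Of the 8, MRPL2, MRPL13, MRPL41 and MRPS33 lost the call in both sets under each of the 3 scalings. MRPS33 kept it in 0 of the 8 fits that left out a library. MRPS34, of the small subunit, went from 98.1 and 115 to 75.8 and 75.1 and from 152 and 151 to 88.9 and 93.4.

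Of 45 translation factor genes, 4 were lower in both sets and none higher. EIF2B3, a subunit of the exchange factor that recharges eIF2, went from 28.1 and 23.4 to 15.2 and 15.8 and from 25.6 and 25.8 to 8.33 and 8.87 (covariate difference -1.08, SE 0.159, adjusted p = 0.00905) and was lower in both sets under every alternative. EIF5A, the hypusine-bearing factor, went from 452 and 502 to 341 and 379.7 and from 682 and 698 to 337 and 339.5. EIF6, which keeps the large ribosomal subunit from joining early, went from 92.5 and 101 to 77.7 and 73.96 and from 120.3 and 121 to 76.6 and 66.3, but lost the call in both sets under each of the 3 scalings. The covariate calls of EIF5A and EIF6 were lost without any 1 of the CRISPR-set libraries (adjusted p at most 0.073 and 0.0718), and EEF1G, the other gene, lost its call in both sets under each of the 3 scalings. Of 36 aminoacyl-tRNA synthetases, 8 were lower in the covariate fit and 3 in both sets (DARS, FARSA and QARS), of which DARS kept the call under 2 and QARS under 1 of the 3 scalings. FARSA, of the phenylalanyl-tRNA synthetase, went from 164 and 194 to 128 and 132 and from 211 and 221 to 149 and 152, and lost its covariate call without CBAP-reconstituted replicate 2 (adjusted p = 0.052). Of 31 mitochondrial import genes 3 (9.68%) and of 36 mitochondrial carriers 5 (13.9%) were lower in both sets. Of 73 spliceosome genes 4 were (5.48%, near the 5.36% of all tested genes). Of 37 ribosome biogenesis genes, 31 were lower in the CRISPR set and none in the shRNA set.

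Some subunits of the RNA exosome, which degrades and trims RNA from its 3′ end, were lower in both sets. Of 40 genes of polyadenylation and RNA decay 5 were lower in both sets and none higher, and 4 of the 5 encode exosome subunits, EXOSC2, EXOSC4, EXOSC5 and EXOSC7, with the decapping factor EDC3 as the fifth. EXOSC4 went from 33.7 and 36.9 to 21 and 21.7 and from 60.4 and 56.03 to 28.9 and 29.7 (covariate difference -0.83, SE 0.0776, adjusted p = 0.00363). EXOSC5 went from 42.5 and 44.6 to 30.9 and 32.6 and from 45.8 and 46.7 to 28.6 and 30.2. EXOSC7 fell less in the shRNA than in the CRISPR set (interaction adjusted p = 0.00112), and lost its covariate call without any 1 of the CRISPR-set libraries (at most 0.0973). EXOSC2 and EDC3 each kept the call in both sets under 1 of the 3 scalings and in 2 of the 8 fits that left out a library. The exosome was singled out after these values were seen, and of 9 tested genes with symbols starting EXOSC the other 5 were not called in both sets. Of 47 proteasome genes, 38 were lower in the CRISPR set and 3 in the shRNA set. These 3 were lower in both (6.38%, near the 5.36% of all tested genes). PSMA6, a subunit of the 20S core, went from 124 and 119.7 to 93.3 and 101 and from 175 and 175 to 82.2 and 80.8. PSMA2, of the same ring, went from 97.3 and 100.3 to 78.5 and 72.1 and from 136 and 132 to 94.1 and 86.1, and the other was PSMD6 of the regulatory particle. Their covariate calls were lost without any 1 of the CRISPR-set libraries for PSMA6 and PSMD6 (adjusted p at most 0.0828 and 0.0822) and without CBAP-reconstituted replicate 1 for PSMA2 (0.0503), which also lost the call in both sets after quantile normalization.

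Lysosome and autophagy genes moved in both directions. Among 40 lysosome and vacuolar ATPase genes, 3 were lower and 3 higher in both sets (7.5% each, against 5.36% and 2.32% of all tested genes). The 3 lower genes encode subunits of the cytosolic V1 part of the proton pump (ATP6V1A, ATP6V1B2 and ATP6V1H). The number of V1 genes tested is not given here. The higher genes of the list were the protease CTSB, the tetraspanin CD63 and the sulfatase IDS. ATP6V1A, CD63 and IDS each kept the call in both sets in 2 of the 8 fits that left out a library. ATP6V1B2 went from 70.2 and 55.9 to 37.4 and 42.1 and from 94.1 and 91.7 to 53.4 and 53.6, and ATP6V1H from 23.9 and 22.5 to 16.8 and 16.6 and from 28.9 and 28.4 to 19.8 and 20.96. CTSB, cathepsin B, went from 15.4 and 14.97 to 21.04 and 19.7 and from 14.2 and 14.1 to 18.7 and 19.04, and lost its covariate call without either CBAP-reconstituted library (adjusted p at most 0.0556). Among 32 autophagy genes, 2 were lower and 2 higher in both sets (6.25% each), and 3 of these 4 encode ATG8-family proteins, the tags of the autophagosome membrane. GABARAPL1 rose from 13.8 and 15.3 to 28.6 and 26.97 and from 7.23 and 6.601 to 13.2 and 12.8 (covariate difference 0.86, SE 0.0701, adjusted p = 0.00307). MAP1LC3B was also higher, a call in both sets kept in 3 of the 8 fits that left out a library. Their relative GABARAP fell from 132 and 130.0 to 111 and 105 and from 236 and 218 to 115 and 121, but lost the call in both sets under each of the 3 scalings. ATG7, the E1-like enzyme that activates these proteins, fell from 5.13 and 4.72 to 3.27 and 3.14 and from 4.805 and 4.29 to 3.01 and 3.17. The covariate calls of GABARAP and ATG7 were lost without any 1 of the CRISPR-set libraries (adjusted p at most 0.0903 and 0.0686).

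Of 36 AKT and mTOR genes, the pathway that the study asked about, 3 were lower in both sets (8.33%). In the same list 2 were higher (5.56%), the phosphatase INPP5D and the kinase GSK3B. Among all tested genes the shares were 5.36% and 2.32%. INPP5D kept the call in both sets in 3 of the 8 fits that left out a library, and GSK3B in all 8. MLST8, a subunit of both mTOR complexes, went from 41.1 and 45.6 to 29.4 and 31.3 and from 61.5 and 63.7 to 37.6 and 35.4. RRAGA, a Rag GTPase that brings mTORC1 to the lysosome when amino acids are present, went from 48.5 and 48.7 to 32.4 and 31.9 and from 50.6 and 49.6 to 35.9 and 35.1. RRAGA kept the call in both sets under every alternative.

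Of 35 genes of the RAS, RAF, MEK and ERK pathway, none was lower in both sets and 3 were higher, while 2 were called with opposite signs. The phosphatase genes DUSP9, described above, and DUSP2 are not in this list, and both were lower in both sets. IER3, an immediate early gene, went from 6.09 and 5.303 to 11.9 and 8.103 and from 6.61 and 5.799 to 23.5 and 23.03. RAC2, a small GTPase of blood cells, went from 180.0 and 193 to 229 and 240.4 and from 139.9 and 139 to 231 and 236, and RPS6KA3, the ERK-activated kinase RSK2, from 14.8 and 14.5 to 17.8 and 19.9 and from 13.1 and 12.97 to 17.1 and 17.4. The rises of IER3 and RAC2 were larger in the CRISPR set (interaction adjusted p = 0.00978 and 0.0113). All 3 lost the covariate call without any 1 of the CRISPR-set libraries (adjusted p at most 0.0674 for IER3, 0.0693 for RAC2 and 0.0733 for RPS6KA3).

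Of 38 T-cell receptor signaling genes, 1 was lower and 5 were higher in the covariate fit, 23 were higher in the CRISPR set, and 2 were higher in both sets. Another 4, ZAP70, NFATC1 and SIT1 among them, were lower in the shRNA and higher in the CRISPR set, and 1, PRKCQ, the reverse. The 2 genes of this list higher in both sets were UBASH3B, a phosphatase acting on ZAP-70, and DGKA, which removes diacylglycerol. UBASH3B went from 8.48 and 8.15 to 12.5 and 10.1 and from 5.19 and 5.22 to 14.4 and 14.7. DGKA went from 24.8 and 25.2 to 29.1 and 32.7 and from 19.1 and 18.9 to 35.6 and 35.7. Both rises were larger in the CRISPR set (interaction adjusted p = 0.00286 and 0.00472), and both covariate calls were lost without any 1 of the CRISPR-set libraries (adjusted p at most 0.0861 and 0.0828). UBASH3B lost the call in both sets after quantile normalization and with the GC and length trend removed. Of 28 cytokine and chemokine receptor genes and related signal genes, none was lower and 6 were higher in the covariate fit, with IL4R, IL17RA, JAK1 and IL32 higher in both sets. IL4R, the receptor chain for IL-4 and IL-13, went from 2.76 and 2.83 to 4.899 and 4.62 and from 4.303 and 4.46 to 9.34 and 8.63. JAK1, the kinase shared by many cytokine receptors, went from 18.9 and 19.2 to 27.5 and 26.1 and from 15.8 and 16.3 to 24.2 and 24.4. Under each of the 3 scalings 6 genes of this list were higher in both sets.

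Of 29 adhesion and migration genes, none was lower and 8 were higher in the covariate fit, with ITGA5, ITGAL, CD2 and RAP1B higher in both sets. CD2, the T-cell receptor for CD58, went from 22.7 and 21.1 in sh-Ctrl to 47.7 and 39.1 in sh-CBAP and from 10.97 and 10.3 in CBAP-reconstituted to 83.8 and 75.9 in CBAP-KO libraries. ITGAL, the alpha chain of the integrin LFA-1, went from 6.58 and 7.25 to 13.5 and 15.9 and from 0.602 and 0.538 to 14.8 and 14.2, so its level was alike in both kinds of CBAP-deficient cells but far lower in CBAP-reconstituted than in sh-Ctrl cells. For both genes the rise was larger in the CRISPR set (interaction adjusted p = 0.000204 and 7.72e-05), and the covariate call was lost without any 1 of the CRISPR-set libraries (adjusted p at most 0.0639 and 0.0728), whereas the call in both sets held under every alternative. ITGA5, the alpha chain of the fibronectin receptor, went from 8.64 and 9.403 to 18.04 and 14.1 and from 3.65 and 3.98 to 11.3 and 9.89 (interaction adjusted p = 0.0586), and lost the call in both sets without sh-Ctrl replicate 1.

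Of 23 interferon-stimulated genes, 3 were higher in both sets and none lower. IFITM2, a membrane protein that restricts virus entry, went from 32.2 and 32.5 to 59.1 and 73.9 and from 45.2 and 46.1 to 86.9 and 68.2 and kept the call under every alternative, though near-identical family members can share its reads. MX2 went from 2.55 and 2.29 to 3.73 and 3.38 and from 1.17 and 1.05 to 4.05 and 3.87, and XAF1, which binds the apoptosis inhibitor XIAP, from 6.51 and 7.65 to 12.1 and 9.06 and from 1.04 and 0.823 to 23.4 and 21.8. Their covariate calls were lost without any 1 of the CRISPR-set libraries (adjusted p at most 0.0822 and 0.134), and XAF1 lost the call in both sets under 16 alternatives. The list as a whole did not move together, since 10 members were lower and 7 higher in the CRISPR set. Of 25 apoptosis genes, the BH3-only gene BMF was higher in both sets, from 2.51 and 1.15 to 3.403 and 4.305 and from 0.858 and 0.749 to 5.45 and 5.43, and the initiator caspase gene CASP9 was lower, from 5.93 and 5.23 to 2.84 and 3.33 and from 4.22 and 5.14 to 3.66 and 3.04. Among 23 leukemia transcription factors, FLI1 and GATA3 were higher in both sets. FLI1, an ETS factor, went from 26.8 and 28.4 to 50.4 and 44.9 and from 28.9 and 30.5 to 41.6 and 42.3, and GATA3, which directs T-cell development, from 25.5 and 25.9 to 30.9 and 33.97 and from 32.2 and 33.5 to 40.8 and 39.98. Without any 1 of the CRISPR-set libraries the covariate calls of BMF, CASP9 and GATA3 were lost (adjusted p at most 0.0676, 0.0883 and 0.0823).

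Cell-cycle genes that moved the same way in both sets were mostly lower. Of 26 G1 regulators, CCNE1, CDK4, TFDP1 and SKP2 were lower and CDKN1B was higher in both sets. CDK4 kept this call under 1 and TFDP1 under 2 of the 3 scalings. CCNE1, cyclin E1, went from 7.796 and 9.91 to 5.604 and 4.29 and from 13.9 and 14.8 to 8.37 and 8.76. SKP2, the ubiquitin ligase subunit that targets p27, went from 57.01 and 55.5 to 38.3 and 43.6 and from 67.4 and 67.04 to 44.4 and 40.4, while CDKN1B, which encodes p27, went from 39.2 and 31.6 to 47.4 and 49.3 and from 56.5 and 59.6 to 84.8 and 92.1. The covariate call of CDKN1B was lost without either CBAP-reconstituted library or CBAP-KO replicate 2 (adjusted p at most 0.0592). Of 46 DNA replication genes, 12 were lower and none higher in the covariate fit, and 6 were lower in both sets (MCM2, POLD1, RFC2, LIG1, RNASEH2A and RNASEH2B). MCM2 and POLD1 lost that call under each of the 3 scalings, and POLD1 kept it in 1 of the 8 fits that left out a library. ORC4 was called with opposite signs. LIG1, the ligase that joins Okazaki fragments, went from 38.95 and 39.04 to 27.5 and 26.1 and from 48.3 and 47.2 to 37.3 and 36.8. RNASEH2A and RNASEH2B, both subunits of ribonuclease H2, went from 90.5 and 86.1 to 66.5 and 72.3 and 208 and 194 to 157 and 163 in the shRNA set and from 81.3 and 80.9 to 55.8 and 54.9 and 212 and 216 to 165 and 164 in the CRISPR set, and their covariate calls were lost without any 1 of the CRISPR-set libraries (at most 0.0573 and 0.0733). RNASEH2A lost the call in both sets with the GC and length trend removed.

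Of 49 mitosis genes, 13 were lower and 1 higher in the covariate fit, and CCNB1, CCNB2, AURKB and NDC80 were lower in both sets. CCNB1 lost that call under each of the 3 scalings and kept it in 2 of the 8 fits that left out a library. NDC80, of the outer kinetochore, went from 31.5 and 27.6 to 13.6 and 16.7 and from 46.5 and 45.6 to 36.3 and 36.3, and its fall was larger in the shRNA set (interaction adjusted p = 0.0184). AURKB, the kinase of the chromosomal passenger complex, went from 82.2 and 66.2 to 50.7 and 59.5 and from 108 and 110.3 to 68.99 and 64.2, and lost the call in both sets under each of the 3 scalings. CCNB2, a mitotic cyclin, went from 104 and 86.6 to 67.1 and 75.9 and from 109.6 and 111 to 85.6 and 87.4. The covariate calls of all 3 were lost without any 1 of the CRISPR-set libraries (adjusted p at most 0.0716 for AURKB, 0.0832 for CCNB2 and 0.0679 for NDC80, the last also without sh-Ctrl replicate 2), and CCNB2 and NDC80 lost the call in both sets after quantile normalization. The list median was -0.169 in the shRNA and -0.235 in the CRISPR set for mitosis, and -0.168 and -0.109 for DNA replication. Of 19 histone genes and of 45 DNA repair genes, 3 each were lower in both sets (15.8% and 6.67%, against 5.36% of all tested genes). None was higher in both, while 2 histone genes and 1 repair gene were called with opposite signs. The lower histone genes were H2AFX, H2AFZ and HIST1H1C. H2AFX and HIST1H1C kept that call under 1 of the 3 scalings, and H2AFZ lost it under each of the 3. H2AFZ and HIST1H1C kept it in 1 of the 8 fits that left out a library. The mitosis and DNA replication medians, like those of the glycolysis, cholesterol and T-cell receptor lists, kept their sign under all 3 scalings.

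**Figure D4:**
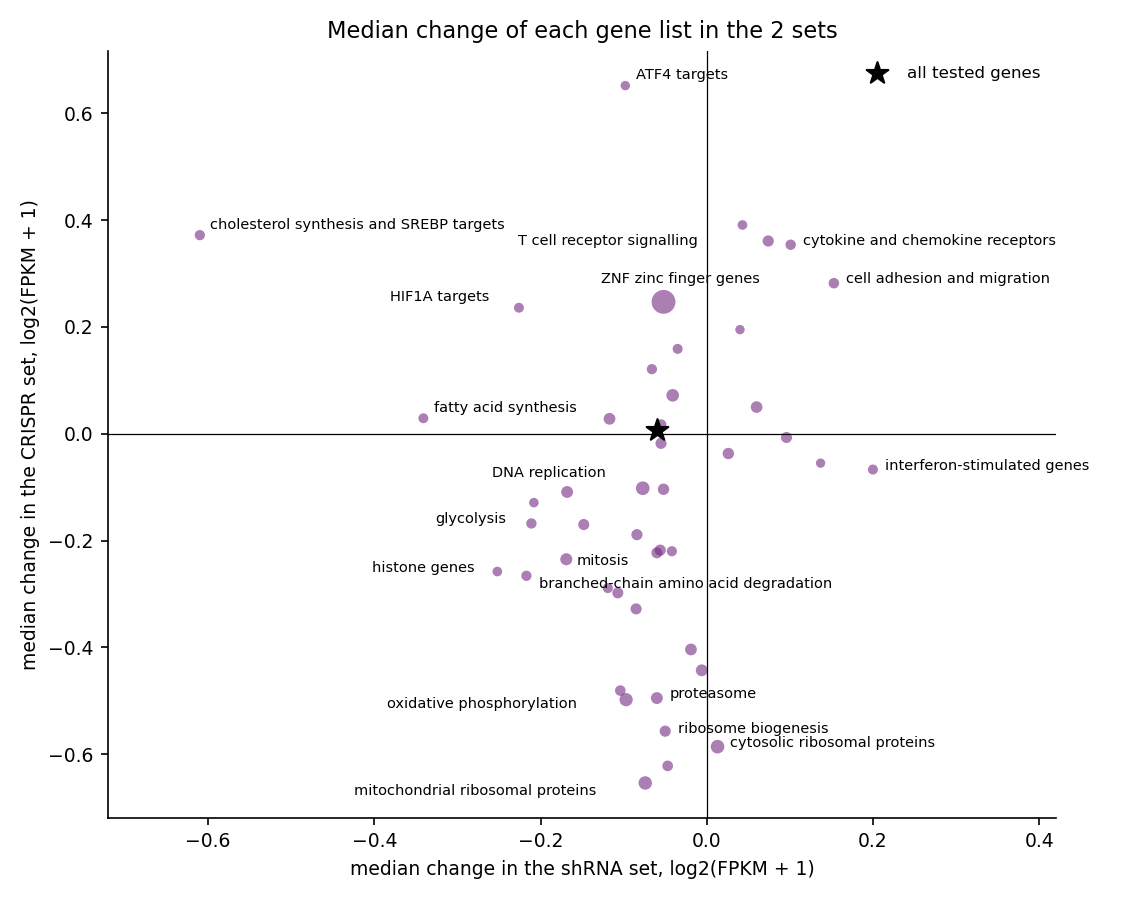
Median change of the tested members of each gene list in the shRNA set (horizontal axis) and the CRISPR set (vertical axis), on the log2(FPKM + 1) scale, with all tested genes as a star. Larger points are lists with more tested members. The cholesterol and SREBP list lies alone at the lower end of the shRNA axis with a positive CRISPR-set median, and the ribosome and biogenesis lists lie low on the CRISPR axis near 0 on the shRNA axis.

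Of the tested genes, 248 (2.35%) were lower in the shRNA set and higher in the CRISPR set, and 94 (0.892%) the reverse, so 342 genes were called with opposite signs against 810 with the same sign. The covariate fit averages such genes away, and none of the 8 with the largest opposite changes was called in it. EPHB2, an ephrin receptor kinase, went from 4.66 and 3.35 in sh-Ctrl to 0.654 and 0.333 in sh-CBAP and from 1.07 and 0.901 in CBAP-reconstituted to 7.86 and 7.74 in CBAP-KO libraries. TMIGD2, a co-stimulatory receptor of T cells, went from 13.4 and 15.6 to 4.95 and 6.36 and from 0.102 and 0.128 to 3.39 and 4.26. In the other direction, ANXA1, the glucocorticoid-induced annexin, went from 80.8 and 89.3 to 206 and 191 and from 19.7 and 19.1 to 7.29 and 6.55, and the chemokine receptor gene CCR4 from 2.67 and 2.95 to 11.6 and 7.01 and from 12.4 and 11.5 to 4.39 and 3.66. For all 8 genes, which include C6orf223, LOC100129083, EFHD1 and IGHVIII-16-1, the interaction contrast passed (adjusted p at most 0.00132). The method, the cells and the control differ between the sets and cannot be told apart.

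Genes that moved in the 2 directions differed in transcript length, GC content and level, given as a description. Genes lower in both sets had shorter transcripts (median 2708 bases) than all tested genes (3848), whereas genes higher in both had a median of 4196. Their median GC content was 53.3% for the lower and 47.1% for the higher genes, against 47.8% for all tested genes. The lower genes had higher levels, which the choice of genes used in part through its limit and scale, with a median mean FPKM of 22.9 against 11.5 for the higher genes and 13.6 for all. The fit with the trend over GC content and length removed held 545 of the 565 lower and 242 of the 245 higher genes, those with a matched transcript. In it 558 of the 810 genes kept their call, and the part of these features in the remaining calls was not tested. By chromosome, the share of tested genes lower in both sets ran from 3.13% on chromosome 4 to 9.79% on chromosome 19, where it was 69 of 705 genes. The share of higher genes ran from 0.755% on chromosome 20 to 7.62% on chromosome 21, where it was 8 of 105 genes. Among symbol families with at least 15 tested genes, the interleukin and interleukin receptor genes (symbols starting IL) had the largest share higher in both sets, 4 of 15 (26.7%), followed by the CD surface antigens, 9 of 46 (19.6%), with CD2, CD46, CD48, CD52, CD63, CD69, CD82, CD96 and CD226. CD1E, CD8B and CD9 were the 3 CD genes lower in both.

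A RefSeq promoter was matched for 80.2% of the genes lower in both sets, and 11.9% of these held an E-box, the motif bound by MYC, USF and SREBP factors, against 7.43% of all promoters. CCAAT boxes were held by 40.4% and 35.7%, the NRF1-like motif by 5.30% and 3.27%, the ETS-like motif by 8.61% and 4.44%, and the cyclic AMP response element by 3.53% and 1.98%. No promoter of the lower genes held the SRE-like letters, which 0.425% of all promoters held. Promoters were matched for 75.9% of the higher genes and 78.7% of all tested genes, under the 80% required, so the check is void for both. The lower genes could therefore not be compared in full with the other tested genes. Within that incomplete match, the shares among all tested genes were 10.6% for the E-box, 37.4% for CCAAT boxes and 6.1% for the NRF1-like motif. For the ETS-like motif the share was 9.7%, and for the cyclic AMP response element 3.59%. All promoters include those of genes not tested here. The higher shares of the lower genes beside them therefore do not set these genes apart from the other tested genes.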

How the data were processed

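RNA from 8 Jurkat libraries, 2 per condition, was measured. Per the submitters' processing notes, reads were base-called with CASAVA 1.8 and processed with TopHat, Bowtie, Cufflinks and Cuffdiff on hg19, and the authors deposited 1 FPKM value per gene and library. Strand use in counting is not given in the sources used here, so reads of overlapping genes cannot be told apart. Fragment counts and depth are not given, which limits statements on low values.

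Genes with an FPKM above 0 in all 8 libraries and a mean of at least 1 were fitted with limma 3.58.1 (R 4.3.3) on log2(FPKM + 1), with an intensity trend and Benjamini-Hochberg adjustment over all tested genes at 0.05. The covariate fit held class and set. A fit with a mean per condition gave the within-set changes and their difference (interaction contrast). It shared 1 estimate of the spread over all 4 conditions. Genes called in both sets with the same sign moved the same way. Other uses of the table were made in Python 3.11.15. Alternatives were other pseudocounts, filters, scalings, models and left-out libraries. The fits were tested on simulated data.

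The genes named are the 12 with the largest smaller-of-2 within-set change in each direction, up to 3 such genes per gene list, and the 4 with the largest opposite changes per order of signs. Other names were picked with their values in view. The comparison and the gene lists were chosen with earlier results of these data known. Positions are from GENCODE 44 lifted to GRCh37, matched for 10023 tested genes (95.1%), and promoters from RefSeq for 8297 (78.7%). Table entries that name several genes (195) were tested but not named. Some genes are not reported here.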

Additional observations from a re-analysis of the deposited data

Results flagged for a closer look

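Each of 97 named genes was examined for a library far from the other 3 of its class, and 4 of the 194 groups examined were marked. For 4 values from a single condition the cut would mark about 1 in 20 groups by chance, or 9.7 of 194. Each group here joins 2 libraries from each of 2 conditions, so 9.7 is not the number expected by chance. These were MAL in sh-Ctrl replicate 1 (FPKM 52.0), CD1E in sh-Ctrl replicate 2 (13.5), TRPM2 in CBAP-KO replicate 2 (7.25) and EIF5A in sh-CBAP replicate 2 (380).

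For 43 of the 97 genes the change itself differed between the sets by limma's interaction contrast (adjusted p under 0.05). The values that follow are the change in the shRNA set less that in the CRISPR set, on the log2(FPKM + 1) scale, so that for a gene higher in both sets a negative value is a larger rise in the CRISPR set and for a gene lower in both sets a positive value is a larger fall there. Among genes higher in both sets the difference was -3.33 for PLEK, -3.10 for XAF1, -2.32 for ITGAL, -1.89 for ALOX5AP, -1.85 for CD2, -1.68 for TRPM2, -1.10 for TDRD9, -1.06 for IER3, -1.05 for CD96 and -1.02 for BMF. It was -0.93 for UBASH3B, -0.91 for S100A4, -0.82 for MX2, -0.79 for SLC38A5, -0.58 for DGKA and -0.41 for RAC2. IL32 alone among the higher genes rose more in the shRNA set, with a difference of 1.04.

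Among genes lower in both sets the difference was 3.96 for NPW, 0.82 for ADD2, 0.78 for EIF2B3, 0.78 for EXOSC7, 0.77 for RPL32, 0.77 for PSMA6, 0.66 for GABARAP, 0.63 for ENO1, 0.62 for EIF5A and 0.52 for GPI. It was 0.50 for NDUFB2, 0.48 for IMPDH1, 0.41 for EIF6, 0.39 for BCAT2, 0.38 for PCCB and 0.36 for PSMD6. AMOTL1 (-0.61) and NDC80 (-0.59) fell more in the shRNA set. Among the genes called with opposite signs it was -4.0 for C6orf223, -3.89 for EPHB2, -3.33 for TMIGD2 and -3.12 for LOC100129083, and 3.09 for IGHVIII-16-1, 2.84 for EFHD1, 2.77 for CCR4 and 2.58 for ANXA1.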

How the results depend on the processing

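The counts depended most on the model and on single libraries. With the set left out of the model 87 genes were called (58 lower, 29 higher), and with the class effect averaged in the fit with a mean per condition 5119 were called, among them all 1910. The replicate numbers did not pair the libraries (correlation of deviations -0.178 in the shRNA and 0.00847 in the CRISPR set), and a replicate block left 2 genes (0 lower, 2 higher). Crossed numbers in the shRNA set, added after seeing the data, left 44. With each set fitted alone 312 genes were called in the shRNA set, 169 moved the same way in both sets and 82 opposite ways. Leaving out 1 library in turn gave 223 to 2661 genes in the covariate fit, 740 to 2689 in the shRNA set, 3855 to 6808 in the CRISPR set, 287 to 1199 moving the same way, 112 to 719 moving opposite ways and 2233 to 5250 that differed between the sets. The covariate count was 223 and 227 without CBAP-reconstituted replicates 1 and 2 and 274 and 255 without CBAP-KO replicates 1 and 2. With 1 library in a condition the lone library is assumed to vary like the others. The cause of these shifts was not tested, beyond there being fewer libraries. The 3 scalings moved the split of lower and higher genes. Of 2915 values of named genes under alternatives, 2277 kept their direction and side of the threshold, 638 kept the direction but not the threshold, and none reversed. Of the 89 named genes that moved the same way, 9 to 34 lost the call in both sets on leaving out a single library, most often without CBAP-reconstituted replicate 1 or 2 (34 each) or sh-Ctrl replicate 1 (32), and 56 with each set fitted alone. Unknown depth limits what can be said of genes listed at 0.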
